A study of Mus musculus with 6 samples.

Results

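The collagen genes are taken here as the protein-coding genes whose symbol consists of Col, a number, the letter a and a second number. There were 44 of them among the 55536 genes listed, of which 22028 are protein-coding, and none was chosen by its measured level. They were followed in 6 subcutaneous tumors of B16, a mouse melanoma cell line that arose in the C57BL/6 strain. Per the labels, about 100000 B16 cells were injected under the skin of C57BL/6J mice, the tumors were taken on day 13, and the injected cells were either ATM knockout (ATM-KO, 3 tumors) or carried a vector control (3 tumors). ATM is a kinase of the DNA damage response. The labels place the knockout in the injected cells and name no change in the host mice. The labels give neither the age or sex of the mice, nor how ATM was disrupted, nor whether the knockout cells were 1 clone, nor whether 1 mouse could carry several tumors, so p-values measure the spread between these 6 tumors.

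Collagens are built from alpha chains that fold into a triple helix, each chain encoded by its own gene. Fibrillar collagens such as types I, III and V assemble into the fibrils of connective tissue and of tumor stroma, and they are made mainly by fibroblasts. Type IV collagen forms the mesh of basement membranes under endothelium and epithelium, type VI forms beaded filaments, and the fibril-associated collagens sit on the surface of fibrils. Type VII forms the anchoring fibrils that tie epidermis to dermis, and type X is known from hypertrophic cartilage. Chains are hydroxylated, glycosylated and folded in the endoplasmic reticulum, trimmed and cross-linked outside the cell, and bound there by integrins and discoidin domain receptors.

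Total RNA of each tumor was sequenced, and the values used are the deposited raw counts, with 22101124 to 29037715 counts on genes per tumor. Levels are given as CPM, counts scaled to a common library total, after TMM scaling of the library sizes, and fold changes are on the log2 scale, ATM-KO minus vector control, ± SE. Atm RNA had 97.2, 132 and 107 CPM in the tumors labelled ATM-KO 1, 2 and 3, against 111, 107 and 95.5 CPM in vector control tumors 1, 2 and 3. These levels overlapped, so the RNA does not check the genotype, and each group is called by its label. Melanoma markers were abundant in every tumor, with 7 of 7 tested and a summed level of 18822 to 19058 CPM in ATM-KO tumors against 18811 to 27174 CPM in vector control tumors. Because whole tumors were sequenced, fewer cells of a type and less RNA per cell cannot be told apart in any value below.

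Among 37 collagen genes with enough counts to test, Col4a5 was higher in the tumors labelled ATM-KO, at 77.8 ± 9.37 CPM against 50.6 ± 4.28 CPM in vector control tumors (SD, n = 3 each). Col4a4 was lower, at 15.8 ± 1.87 CPM against 27.5 ± 3.19 CPM (SD, n = 3 each), and so was Col7a1, at 2.47 ± 0.254 CPM against 5.46 ± 1.24 CPM (SD, n = 3 each). These 3 were 8.11% of the tested collagen genes, against 4.96% of all genes tested. None of the 3 calls held when any single tumor other than vector control tumor 1 was left out, and Col7a1 also lost its call without that tumor. Genes around Col4a5 were mostly higher too, with a median log2 fold change of 0.539 within 2 Mb. The abundant chains of types I, III, V and VI did not pass the test and varied more between vector control tumors than between the groups. Vector control tumor 1 had less fibrillar collagen RNA than any other tumor and more Col4a3, Col4a4, Col9a3, Col11a2 and Col20a1 RNA than any other.

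Collagen transcripts made up 0.289%, 0.311% and 0.256% of the counts in ATM-KO tumors 1, 2 and 3, against 0.131%, 0.362% and 0.515% in vector control tumors 1, 2 and 3. The 3 ATM-KO tumors lay close together and inside the range of the vector control tumors. Fibrillar chains summed to 1607, 1813 and 1521 CPM in ATM-KO tumors 1, 2 and 3, against 413, 2332 and 3355 CPM in vector control tumors 1, 2 and 3. Type IV chains were more even, with 552, 597 and 480 CPM in ATM-KO tumors 1, 2 and 3, against 627, 684 and 884 CPM in vector control tumors 1, 2 and 3, so that all 3 ATM-KO tumors were below all 3 vector control tumors. Col1a1, Col1a2 and Col3a1 together held 48.0%, 47.7% and 49.2% of collagen transcripts in ATM-KO tumors 1, 2 and 3, against 19.8%, 54.6% and 55.5% in vector control tumors 1, 2 and 3. Col4a1 and Col4a2 together held 16.4%, 16.5% and 14.8% in ATM-KO tumors 1, 2 and 3, against 39.1%, 16.5% and 15.7% in vector control tumors 1, 2 and 3. Only vector control tumor 1 had more type IV than type I and III transcripts from these 5 genes.

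**Figure D1:**
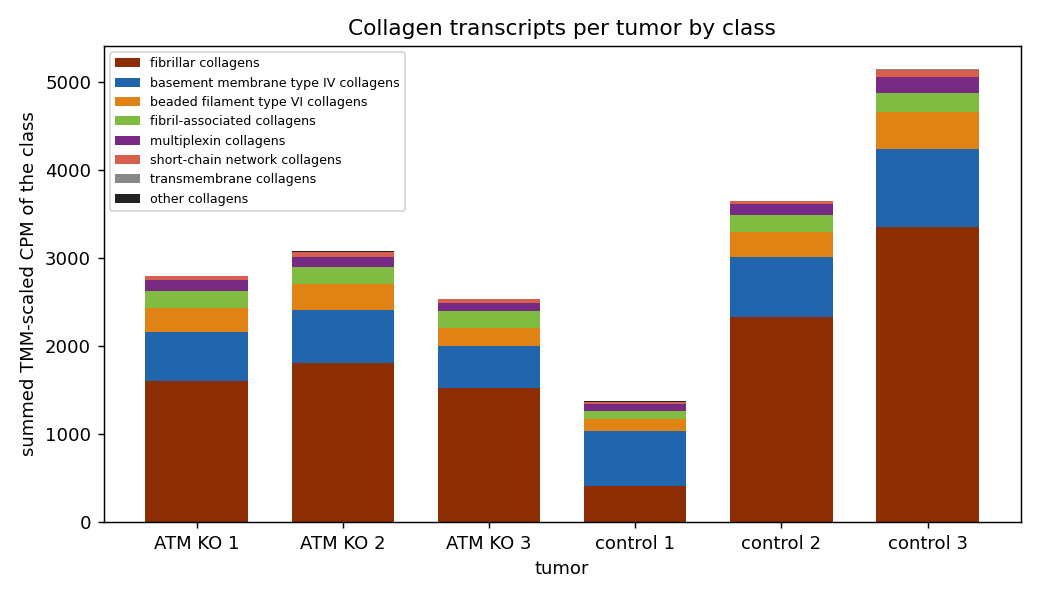
Summed TMM-scaled CPM of the collagen genes of each class in each of the 6 tumors, with ATM-KO tumors on the left and vector control tumors on the right. The fibrillar part is smallest in vector control tumor 1 (413 CPM) and largest in vector control tumor 3 (3355 CPM), while the ATM-KO tumors lie between 1521 and 1813 CPM.

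Vector control tumor 1 stands apart in many of these genes. Of the 37 tested collagen genes, 20 (54.1%) were lowest in this tumor, against 24.7% of all 15696 genes tested, and 5 (13.5%) were highest in it, against 25.4% of all genes tested. Among the 32 members with a mean of at least 1 CPM, 15 were below 0.5 times the median of the other 5 tumors, 11 were between 0.5 and 1.5 times, and 6 were above 1.5 times. The ratio was 0.0862 for Col14a1, 0.106 for Col3a1, 0.220 for Col1a2 and 0.249 for Col1a1. It was 3.32 for Col4a3, 2.38 for Col11a2, 2.35 for Col20a1, 2.24 for Col7a1, 1.73 for Col4a4 and 1.68 for Col9a3. Exons of Col20a1 overlap another gene on the same strand, and those of Col4a3 and Col9a3 overlap one on the opposite strand, so their reads may be shared or lost. Fibroblast markers, of which 9 of 10 were tested and none was at 0 in every tumor, summed to 322 to 347 CPM in ATM-KO tumors and to 249 to 418 CPM in vector control tumors, with the lowest sum in vector control tumor 1, where 7 of the 9 were lowest. Fbln1 went the other way: it was highest in that tumor, at 184 CPM, and made up most of the sum there. All 5 leukocyte and macrophage markers were lowest there too, with a sum of 228 CPM against 385 to 577 CPM in the other 5 tumors, and melanoma markers were highest there for 6 of 7. The part that these cells take in the collagen levels was not tested.

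**Figure D2:**
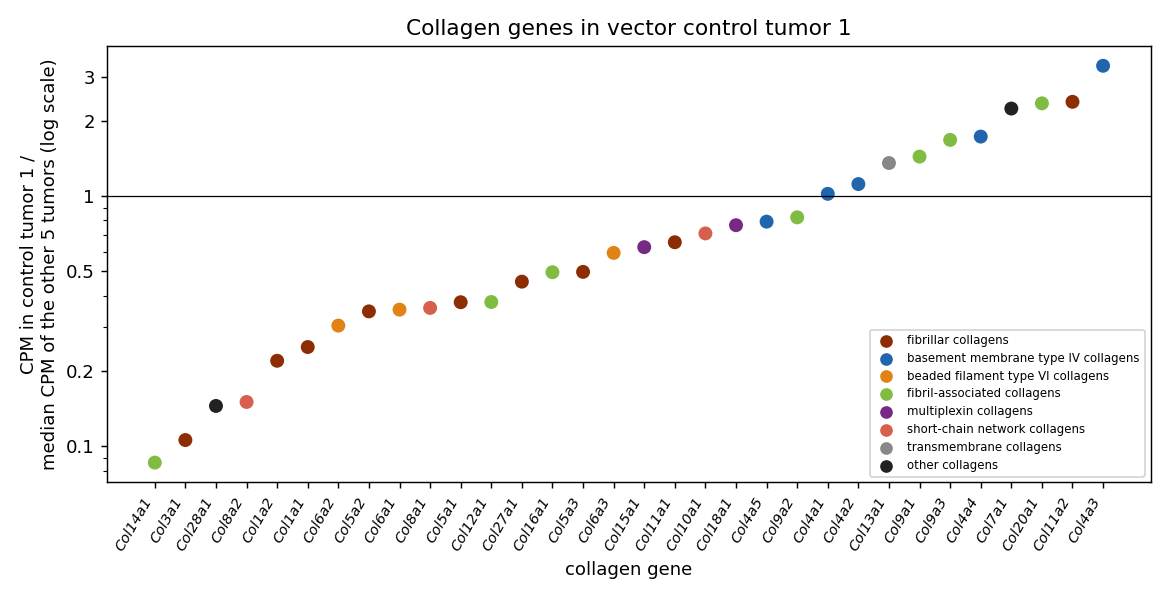
Level of each collagen gene with a mean of at least 1 CPM in vector control tumor 1, divided by its median in the other 5 tumors, on a log axis. Points run from 0.0862 for Col14a1 to 3.32 for Col4a3, with Col3a1, Col1a2 and Col1a1 among the low ones and Col11a2, Col20a1 and Col7a1 among the high ones.

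Type I collagen, the main fibril former of skin and stroma, is a trimer of chains from Col1a1 and Col1a2, and type III is a trimer of Col3a1 chains. Col3a1 (ENSMUSG00000026043, chr1:45311538-45349706 in GRCm38, plus strand) was the collagen gene with the most reads for its exon length, at 74.4 CPM per kb. Col3a1 had 617, 585 and 649 CPM in ATM-KO tumors 1, 2 and 3, against 68.9, 1105 and 1357 CPM in vector control tumors 1, 2 and 3. The ATM-KO tumors were alike, and the vector control tumors lay on both sides of them. Exons of Col3a1 overlap Gm47302 on the same strand, so some of its reads may be shared or lost. The difference in Col3a1 was -0.45 ± 0.97 and did not pass (edgeR quasi-likelihood, adjusted p = 0.851). Without vector control tumor 1 it was -0.99 and passed, with an adjusted p of 0.00943 in the same edgeR test. In that setting 7.5% of all genes tested were called in either direction. The tumor left out was the lowest one for Col3a1, so that p-value is not independent of the choice. The sign was not stable either: with limma-voom it was positive.

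Col1a1 (chr11:94936224-94953042) had 369, 462 and 277 CPM in ATM-KO tumors 1, 2 and 3, against 109, 438 and 797 CPM in vector control tumors 1, 2 and 3. Its difference was -0.28 ± 0.69 (edgeR adjusted p = 0.869). Col1a2 (chr6:4504814-4541544) had 359, 424 and 322 CPM in ATM-KO tumors 1, 2 and 3, against 93.1, 452 and 709 CPM in vector control tumors 1, 2 and 3, a difference of -0.18 ± 0.68 (edgeR adjusted p = 0.919). Both type I genes thus followed the order of the vector control tumors seen for Col3a1, and their groups overlapped. Their levels per length were 62.3 and 31.6 CPM per kb. The signs were not stable: without vector control tumor 1 the differences were -0.74 for Col1a1 and -0.66 for Col1a2, and without vector control tumor 3 they were 0.44 and 0.45, none past the threshold.

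Other fibril chains were less abundant. Col5a1 and Col5a2, whose type V chains nucleate type I fibrils, averaged 91.8 ± 17.6 and 120 ± 18.3 CPM in ATM-KO tumors, against 112 ± 64.2 and 125 ± 88.7 CPM in vector control tumors (SD, n = 3 each). Col5a3, a further chain of type V, averaged 66.6 ± 7.61 CPM in ATM-KO tumors and 65.9 ± 26.1 CPM in vector control tumors. In each of these genes the SD between vector control tumors exceeded the difference between the groups. Col11a1, Col27a1, Col2a1 and Col24a1, chains of cartilage and minor fibrillar collagens, stayed under 6 CPM in every tumor. Of 11 fibrillar genes tested, 0 were called in either direction, 1 had an unadjusted edgeR p under 0.05 and 8 had negative fold changes, with a median of -0.28. Among all genes tested 4.96% were called and 50.9% had negative fold changes. At that unadjusted p 10.6% were higher and 12.3% lower. Such small counts do not set the fibrillar genes apart.

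The exception among fibrillar genes was Col11a2 (chr17:34039437-34066685), which encodes a chain of type XI collagen, known from cartilage. Col11a2 had 6.73, 6.41 and 5.85 CPM in ATM-KO tumors 1, 2 and 3, against 16.01, 9.92 and 7.95 CPM in vector control tumors 1, 2 and 3. The groups did not overlap, but the difference of -0.84 ± 0.27 did not pass (edgeR adjusted p = 0.131), and vector control tumor 1 held the highest value. The 155 other tested genes within 2 Mb of Col11a2 had a median log2 fold change of 0.22, of the other sign.

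**Figure D3:**
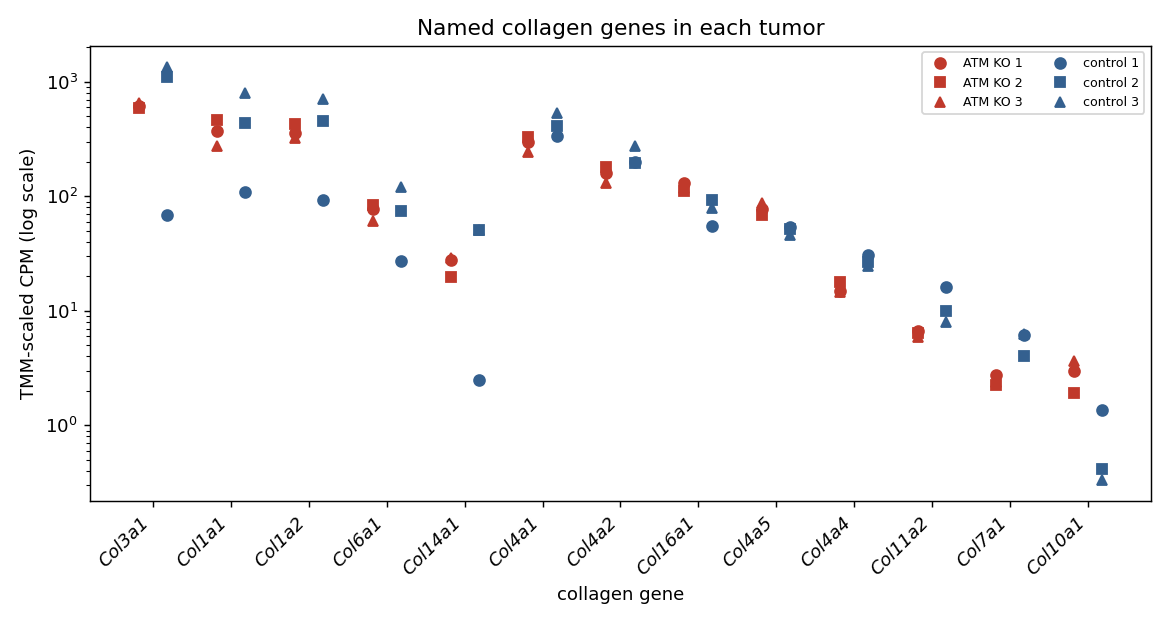
TMM-scaled CPM of the 13 collagen genes described one by one, on a log axis, with 1 point per tumor and ATM-KO tumors left of vector control tumors for each gene. Col4a4, Col4a5, Col7a1, Col10a1, Col11a2 and Col16a1, shown because they had the 6 smallest p-values in edgeR, separate the groups. Col4a1 and Col4a2 also do, whereas Col1a1, Col1a2, Col3a1, Col6a1 and Col14a1 overlap. Over all 37 tested members, ATM-KO tumors were all higher for 10.8% and all lower for 16.2%, against 14.3% and 15.4% of all genes tested.

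The type IV genes lie in head-to-head pairs. The annotated starts of Col4a1 and Col4a2 are 21 bases apart on opposite strands, those of Col4a3 and Col4a4 are 72 bases apart, and those of Col4a5 and Col4a6 are 1309 bases apart. The windows from 250 bases before to 50 bases after each start, as given by RefSeq for GRCm38.p6, are shown for the first pair because they share 78 bases, printed in capitals, each the reverse complement of the other. The Col4a1 window is chr8:11312777-11313076 on the minus strand and the Col4a2 window is chr8:11312555-11312854 on the plus strand.
Col4a1: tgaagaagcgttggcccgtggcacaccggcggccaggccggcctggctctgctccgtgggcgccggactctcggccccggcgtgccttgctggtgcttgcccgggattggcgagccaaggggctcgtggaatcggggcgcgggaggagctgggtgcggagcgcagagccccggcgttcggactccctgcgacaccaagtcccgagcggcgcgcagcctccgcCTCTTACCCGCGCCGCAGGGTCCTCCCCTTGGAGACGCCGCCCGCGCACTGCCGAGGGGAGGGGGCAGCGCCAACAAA
Col4a2: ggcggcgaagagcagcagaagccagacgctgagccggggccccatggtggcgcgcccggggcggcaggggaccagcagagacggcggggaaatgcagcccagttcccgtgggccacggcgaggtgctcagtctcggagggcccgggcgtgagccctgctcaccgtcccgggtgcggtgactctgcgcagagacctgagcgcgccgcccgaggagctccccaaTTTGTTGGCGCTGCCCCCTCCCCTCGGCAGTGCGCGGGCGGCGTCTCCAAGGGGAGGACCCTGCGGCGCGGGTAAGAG

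Col4a1 and Col4a2 encode the chains of the common type IV trimer of basement membranes. Their exons overlap each other on opposite strands, so reads there may be shared or lost, which also bears on their ratio. Col4a1 (chr8:11198423-11312826) had 299, 330 and 244 CPM in ATM-KO tumors 1, 2 and 3, against 337, 409 and 534 CPM in vector control tumors 1, 2 and 3. Col4a2 (chr8:11312805-11449287) had 160, 179 and 131 CPM in ATM-KO tumors 1, 2 and 3, against 200 (tumor 1), 196 (tumor 2) and 278 (tumor 3) CPM in vector control tumors. In both genes all 3 ATM-KO tumors were below all 3 vector control tumors, and vector control tumor 1 was not low, unlike for the fibrillar chains. The differences of -0.55 ± 0.19 for Col4a1 and -0.52 ± 0.18 for Col4a2 did not pass (edgeR adjusted p = 0.157 and 0.149). DESeq2 called both lower, with adjusted p-values of 0.0382 and 0.0407, but it called 7.04% of all genes lower, against 2.75% with edgeR. The median over 24 other tested genes within 2 Mb of Col4a1 was -0.0381, and that of chromosome 8 was -0.259. Endothelial markers, of which 8 of 8 were tested and none was at 0, summed to 201 to 234 CPM in ATM-KO tumors and to 201 to 353 CPM in vector control tumors, with 7 negative fold changes and 0 called. Their part in the type IV levels was not tested.

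Chains from Col4a3, Col4a4 and Col4a5 form a type IV trimer known from kidney glomerulus, lung and inner ear, and Col4a5 chains also pair with those of Col4a6 in another. Col4a4 (ENSMUSG00000067158, chr1:82448423-82586849, minus strand) had 14.8, 17.9 and 14.6 CPM in ATM-KO tumors 1, 2 and 3, against 31.0, 26.9 and 24.7 CPM in vector control tumors 1, 2 and 3. The groups were separate, with 362 to 501 counts in ATM-KO tumors and 589 to 701 counts in vector control tumors behind them. Col4a4 was lower in the tumors labelled ATM-KO by -0.80 ± 0.13 on the log2 scale (edgeR quasi-likelihood, adjusted p = 0.0318), in 3 of 3 tumors. Its neighbour Col4a3, which starts 72 bases away, was at 1.35, 0.931 and 2.19 CPM in ATM-KO tumors 1, 2 and 3, against 4.25, 1.28 and 1.16 CPM in vector control tumors 1, 2 and 3, and its groups overlapped. The Col4a4 call held without vector control tumor 1 (edgeR adjusted p = 0.0301) and ended when any of the other 5 tumors was left out (0.0630 to 0.143), where the count of called genes over all genes also dropped, to between 2 and 196.

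Col4a5 (ENSMUSG00000031274, chrX:141475385-141689234, plus strand) had 77.1, 68.9 and 87.6 CPM in ATM-KO tumors 1, 2 and 3, against 54.4, 51.4 and 46.0 CPM in vector control tumors 1, 2 and 3. All 3 ATM-KO tumors exceeded all 3 vector control tumors, on 1880 to 2559 counts in ATM-KO tumors and 1111 to 1231 counts in vector control tumors. Col4a5 was higher by 0.62 ± 0.11 on the log2 scale (edgeR quasi-likelihood, adjusted p = 0.0365). Its head-to-head partner Col4a6 had 0 to 2 counts in ATM-KO tumors and 0 to 3 counts in vector control tumors and was not tested. The Col4a5 call held without vector control tumor 1 (edgeR adjusted p = 0.0292) and ended without any of the other 5 tumors (0.0789, 0.0694, 0.0823, 0.122 and 0.143).

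The genes around Col4a5 had fold changes of the same sign. Of 22 other tested genes within 2 Mb, 20 had positive fold changes, the median was 0.539, 6 were called higher and 0 lower. Within 5 Mb, 31 of 36 were positive, the median was 0.53, 10 were called higher and 0 lower, whereas the median of chromosome X as a whole was -0.071. The fold change of Col4a5 was thus near that of its neighbours. Around the other called members the medians were smaller: within 2 Mb the median was -0.197 over 11 genes around Col4a4 and -0.102 over 99 genes around Col7a1. Whether a regional change took part in the level of Col4a5 was not tested.

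**Figure D4:**
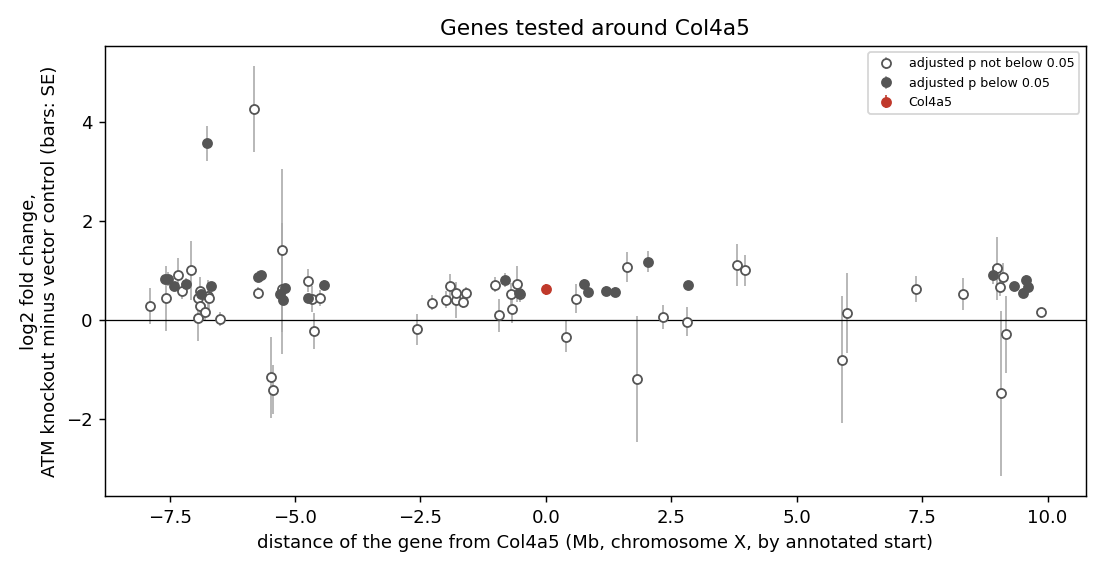
Log2 fold change, ATM-KO minus vector control, with SE, of each tested gene within 10 Mb of Col4a5, against the distance of its start from Col4a5. Of the 36 other genes within 5 Mb, 31 lie above 0, with a median of 0.53, next to 0.62 for Col4a5.

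The promoter windows of the called members are shown with matches to the GC box (GGGCGG) and the CCAAT box (CCAAT), searched on both strands, in capitals; the reverse complements are CCGCCC and ATTGG. These RefSeq windows of GRCm38.p6 are chr1:82586800-82587099 on the minus strand for Col4a4, chrX:141475169-141475468 on the plus strand for Col4a5 and chr9:108953336-108953635 on the plus strand for Col7a1.
Col4a4: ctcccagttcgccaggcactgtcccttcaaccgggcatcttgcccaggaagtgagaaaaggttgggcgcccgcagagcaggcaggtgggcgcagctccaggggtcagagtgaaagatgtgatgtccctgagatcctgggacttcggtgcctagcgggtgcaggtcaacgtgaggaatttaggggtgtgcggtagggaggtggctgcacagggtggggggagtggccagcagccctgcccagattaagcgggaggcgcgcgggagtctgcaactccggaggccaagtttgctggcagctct
Col4a5: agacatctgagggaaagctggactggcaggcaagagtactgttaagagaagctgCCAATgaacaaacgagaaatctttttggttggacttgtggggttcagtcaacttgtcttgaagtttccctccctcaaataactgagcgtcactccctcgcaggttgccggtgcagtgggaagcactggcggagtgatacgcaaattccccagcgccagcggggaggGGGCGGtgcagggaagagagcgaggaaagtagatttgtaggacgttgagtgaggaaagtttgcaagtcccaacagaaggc
Col7a1: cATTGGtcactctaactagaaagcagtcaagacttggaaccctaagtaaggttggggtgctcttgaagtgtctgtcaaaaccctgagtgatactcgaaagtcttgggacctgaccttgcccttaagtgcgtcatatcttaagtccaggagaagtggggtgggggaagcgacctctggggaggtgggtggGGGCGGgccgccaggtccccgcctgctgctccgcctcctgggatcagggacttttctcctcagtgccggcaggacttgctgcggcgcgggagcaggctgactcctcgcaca

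The Col4a5 and Col7a1 windows each held 1 GC box and 1 CCAAT box, and the Col4a4 window held neither. RefSeq windows were matched for 35 of the 44 collagen genes. A GC box was in 22 of these 35 and in 35.7% of the 32851 windows of all genes, a CCAAT box was in 13 of 35 and in 37.4%, and the TATA box TATAAA was in 5 of 35 and in 13.6%. The counts out of 35 are of genes with a match in any of their windows, whereas the percentages are of single windows. A gene may have more than 1 window, so these are unlike measures and no enrichment can be read from them. These matches describe the letters of the windows and not a site in use.

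Col7a1 (ENSMUSG00000025650, chr9:108953586-108984875, plus strand) encodes the anchoring fibril collagen of the skin's basement membrane zone. Col7a1 had 2.75, 2.26 and 2.40 CPM in ATM-KO tumors 1, 2 and 3, against 6.15, 4.02 and 6.21 CPM in vector control tumors 1, 2 and 3. All 3 ATM-KO tumors were lower, on 63 to 70 counts in ATM-KO tumors and 88 to 150 counts in vector control tumors. Exons of Col7a1 overlap Mir711 on the same strand, so some of its reads may be shared or lost. Col7a1 was lower by -1.15 ± 0.24 on the log2 scale (edgeR quasi-likelihood, adjusted p = 0.0472). This call lies near the threshold: it ended without each of the 6 tumors in turn (edgeR adjusted p = 0.0545 to 0.164), with library size as the only scaling (0.0509), with limma-voom (0.0523) and with protein-coding genes only (0.0537). Of 6 markers of keratinocytes, which are among the cells that make type VII collagen in skin, 4 were at 0 in every tumor. The list summed to 0.123 to 0.179 CPM in ATM-KO tumors and 0.0457 to 0.166 CPM in vector control tumors. Which cells held the Col7a1 RNA was not tested.

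Col10a1 (chr10:34389981-34397085), the short-chain collagen of hypertrophic cartilage, had the largest positive fold change of the tested members. Col10a1 had 2.99, 1.93 and 3.66 CPM in ATM-KO tumors 1, 2 and 3, against 1.37, 0.412 and 0.331 CPM in vector control tumors 1, 2 and 3. The groups were separate on 54 to 107 counts in ATM-KO tumors and 8 to 31 counts in vector control tumors, and the difference of 2.02 ± 0.58 did not pass (edgeR adjusted p = 0.104). Its exons overlap those of Nt5dc1 on the opposite strand, and the sources used here do not say whether the counting used strand, so reads of the pair may not be told apart. Sox9, a transcription factor of cartilage that is also expressed in other cells, was the 1 of 6 cartilage and bone markers with enough counts to test. Sox9 had 8.28, 7.73 and 6.91 CPM in ATM-KO tumors 1, 2 and 3, against 1.55, 1.60 and 3.23 CPM in vector control tumors 1, 2 and 3, and was higher by 1.84 ± 0.32 (edgeR adjusted p = 0.0361). Of the other markers of that list, Comp had 2 to 20 counts, Bglap 1 to 8, Acan 0 to 5 and Matn1 0 to 2 counts in any tumor, and Ibsp was at 0 in all 6.

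Col16a1 (chr4:130047840-130099283), a collagen associated with fibrils, had 130 (tumor 1), 112 (tumor 2) and 118 (tumor 3) CPM in ATM-KO tumors, against 55.4, 93.2 and 79.3 CPM in vector control tumors 1, 2 and 3. Its groups did not overlap, and its difference of 0.66 ± 0.19 did not pass (edgeR adjusted p = 0.106). Col14a1, which binds and spaces fibrils, is described after its values were seen because its level in vector control tumor 1 was the smallest share of that in the other tumors among members of at least 1 CPM. Col14a1 had 27.9, 19.7 and 28.7 CPM in ATM-KO tumors 1, 2 and 3, against 2.48, 51.1 and 50.6 CPM in vector control tumors 1, 2 and 3, a difference of -0.45 ± 0.99 (edgeR adjusted p = 0.853). Without vector control tumor 1 the difference was -0.997 and passed, with an edgeR adjusted p of 0.0282. Because Col14a1 was picked by its value in the tumor left out, that p-value is not independent of the choice.

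Of the other fibril-associated genes, Col12a1 averaged 36.0 ± 11.4 CPM in ATM-KO tumors and 42.7 ± 31.8 CPM in vector control tumors (SD, n = 3 each), and Col20a1 averaged 6.59 ± 0.926 CPM in ATM-KO tumors and 8.02 ± 5.06 CPM in vector control tumors. The 3 type IX chains, partners of cartilage fibrils, were all under 6 CPM, with Col9a1 lower in every ATM-KO tumor than in any vector control tumor and Col9a2 higher. Neither passed the edgeR test (adjusted p = 0.134 and 0.418). Of 7 fibril-associated genes tested 0 were called by edgeR and 2 had an unadjusted p under 0.05, 5 had negative fold changes and the median was -0.28. Among all genes tested 4.96% were called and 50.9% had negative fold changes. At that unadjusted p 10.6% were higher and 12.3% lower, so these small counts do not set the class apart.

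Type VI chains followed the fibrillar pattern. Col6a1 (chr10:76708792-76726168) had 77.5, 84.7 and 61.2 CPM in ATM-KO tumors 1, 2 and 3, against 27.3, 74.9 and 120 CPM in vector control tumors 1, 2 and 3. The groups overlapped, with a difference of 0.01 ± 0.52 (edgeR adjusted p = 0.997), which was -0.39 without vector control tumor 1 and 0.56 without vector control tumor 3. Col6a2 averaged 65.2 ± 10.7 CPM in ATM-KO tumors and 64.5 ± 44.9 CPM in vector control tumors, and Col6a3 averaged 118 ± 28.1 CPM in ATM-KO tumors and 137 ± 55.0 CPM in vector control tumors (SD, n = 3 each). Col6a5 and Col6a6 were at 0 in vector control tumor 1 and under 1.1 CPM elsewhere. All 5 tested type VI genes were lowest in vector control tumor 1, against 24.7% of all genes tested. Of these 5, 0 were called by edgeR or had an unadjusted p under 0.05. Among all genes tested 4.96% were called, and at that unadjusted p 10.6% were higher and 12.3% lower.

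The multiplexins of vessel and epithelial basement membranes, Col15a1 and Col18a1, averaged 71.5 ± 7.92 and 38.2 ± 6.55 CPM in ATM-KO tumors, against 88.0 ± 38.1 and 44.7 ± 10.3 CPM in vector control tumors (SD, n = 3 each), and neither was called. Col8a1, a short-chain collagen of vessel walls and cornea, averaged 44.5 ± 14.0 CPM in ATM-KO tumors and 38.1 ± 33.0 CPM in vector control tumors. The transmembrane collagens Col13a1 and Col23a1 stayed under 5 CPM, and Col8a2 and Col28a1 under 4 CPM, and 0 of these 4 were called. The 7 members with too few counts to test were Col4a6, Col6a4, Col17a1, Col19a1, Col22a1, Col25a1 and Col26a1, whose highest single count was 45, for Col22a1 in ATM-KO tumor 2.

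Read over all members, 1 of 37 tested collagen genes was called higher (2.70%, against 2.21% of all genes tested) and 2 were called lower (5.41%, against 2.75%), or 3 in either direction (8.11%, against 4.96%). Counts of 1 and 2 genes are too small to set the collagens apart from the background. At an unadjusted p under 0.05, 3 were higher and 6 lower, against 10.6% and 12.3% of all genes. The 3 ATM-KO tumors were all above the 3 vector control tumors for 4 members (10.8%, against 14.3% of all genes) and all below for 6 (16.2%, against 15.4%), which are shares near the background. Fold changes were positive for 13 and negative for 24 members, with a median of -0.248, against -0.00584 over all genes tested. The sign of that median was not stable: it was 0.13 without vector control tumor 3, 0.11 with limma-voom, and -0.49 without vector control tumor 1.

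**Figure D5:**
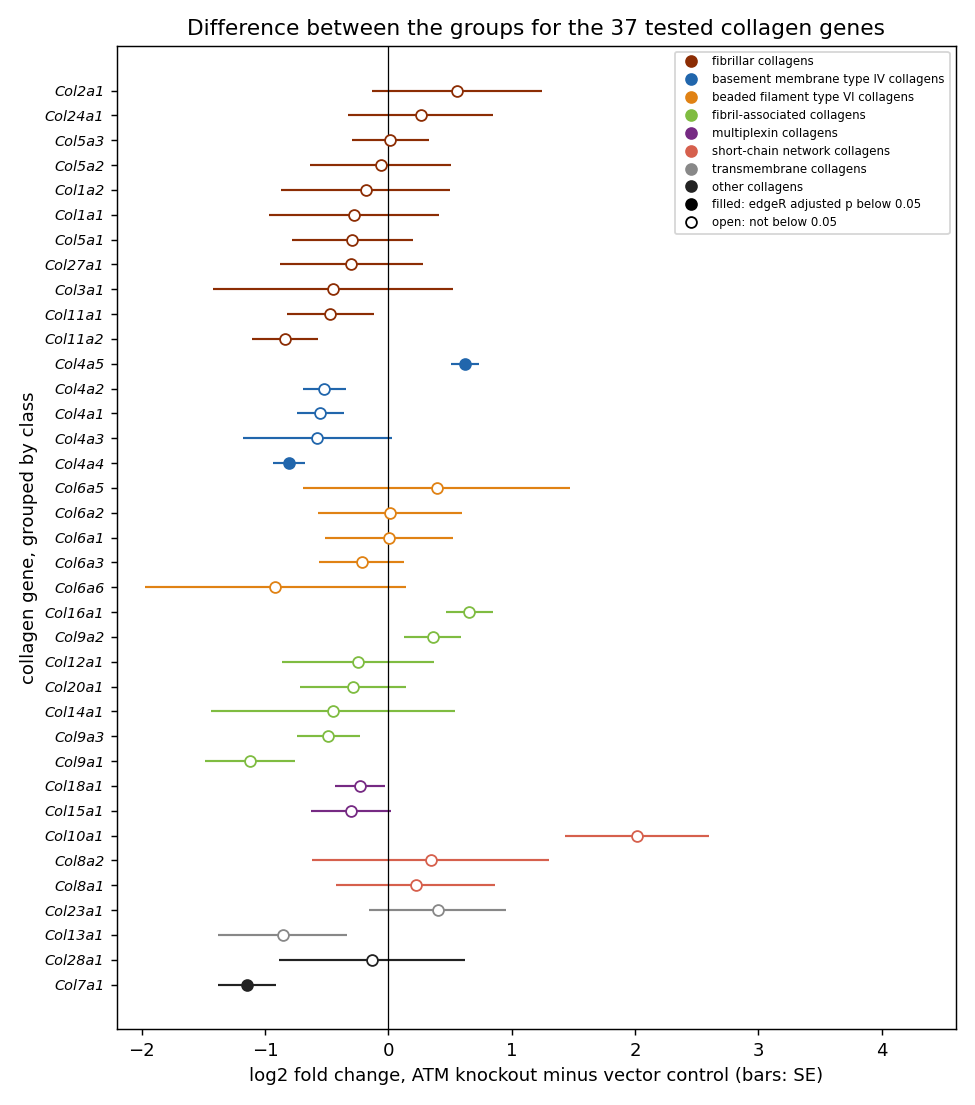
Log2 fold change, ATM-KO minus vector control, with SE, of the 37 tested collagen genes, grouped by class. Filled points, for Col4a5, Col4a4 and Col7a1, have an edgeR adjusted p below 0.05; long bars, as for Col3a1 and Col14a1, mark the genes that vary most between tumors.

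Other readings of the calls differed in number. DESeq2 called 3 members higher and 5 lower, adding Col10a1 and Col16a1 to the higher genes and Col11a2, Col4a1 and Col4a2 to the lower ones, but it also called 5.78% of all genes higher and 7.04% lower, or 12.8% in either direction. Without vector control tumor 1, edgeR called Col4a5, Col10a1 and Col16a1 higher and Col4a4, Col3a1 and Col14a1 lower, with 3.64% of all genes called higher and 3.86% lower, or 7.5% in all.

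Chains were compared within each tumor as the log2 ratio of their counts per kb, over 6 pairs of partner chains of 1 collagen type and the pair of Col3a1 with Col1a1, whose types share fibrils. Col4a1 over Col4a2 was 0.73, 0.71 and 0.73 in ATM-KO tumors 1, 2 and 3, against 0.58, 0.89 and 0.77 in vector control tumors 1, 2 and 3. Col1a1 over Col1a2 was 0.96, 1.05 and 0.71 in ATM-KO tumors 1, 2 and 3, against 1.15, 0.88 and 1.09 in vector control tumors 1, 2 and 3. Across the 6 tumors these ratios spanned 0.31 and 0.45, and Col6a1 over Col6a2 spanned 0.30. Col3a1 over Col1a1 spanned 2.00, with 0.16, -0.24 and 0.65 in ATM-KO tumors 1, 2 and 3, against -1.25, 0.75 and 0.19 in vector control tumors 1, 2 and 3. Mean differences between the groups were -0.03 for Col4a1 over Col4a2, -0.13 for Col1a1 over Col1a2, 0.29 for Col3a1 over Col1a1, -0.32 for Col5a1 over Col5a2, -0.08 for Col6a1 over Col6a2, -0.40 for Col6a3 over Col6a1 and -0.23 for Col8a1 over Col8a2. In two-sided exact permutation tests over the 20 assignments of the tumors p lay between 0.3 and 0.9, all 0.9 after Benjamini-Hochberg adjustment over these 7 pairs, where the smallest p possible is 0.1.

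The genes that fold and modify collagen chains had mostly negative fold changes, and 3 of 21 tested passed the test, all lower in the tumors labelled ATM-KO, where 2.75% of all genes tested were called lower. Colgalt1, which adds galactose to hydroxylysine, had 105, 106 and 99.3 CPM in ATM-KO tumors 1, 2 and 3, against 138, 154 and 146 CPM in vector control tumors 1, 2 and 3, a difference of -0.50 ± 0.07 (edgeR adjusted p = 0.0235). P3h3, of the prolyl 3-hydroxylase family, had 60.2, 66.7 and 67.8 CPM in ATM-KO tumors 1, 2 and 3, against 131, 108 and 88.5 CPM in vector control tumors 1, 2 and 3, a difference of -0.75 ± 0.14 (edgeR adjusted p = 0.0424). Crtap, a partner of the prolyl 3-hydroxylase P3h1, had 35.0, 35.3 and 32.7 CPM in ATM-KO tumors 1, 2 and 3, against 43.7, 45.3 and 42.0 CPM in vector control tumors 1, 2 and 3, a difference of -0.35 ± 0.07 (edgeR adjusted p = 0.0462). In each of the 3 genes the groups did not overlap. Crtap did not pass when scaled by library size alone (edgeR adjusted p = 0.0656), with no filter (0.0810) or with limma-voom (0.0518). In all, 19 of the 21 had negative fold changes, against 50.9% of all genes, 8 had a negative one with an unadjusted p under 0.05, against 12.3% of all genes, and the median was -0.25. Of the 21, 4 were lowest and 7 highest in vector control tumor 1, against 24.7% and 25.4% of all genes tested. These counts are too small to differ clearly from those shares. Of the tested collagen genes, 54.1% were lowest in that tumor.

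Outside the cell, 1 of 11 genes of procollagen processing and cross-linking passed, where 4.96% of all genes were called in either direction. Adamts14, which removes the amino-terminal propeptide, had 12.2, 9.70 and 10.8 CPM in ATM-KO tumors 1, 2 and 3, against 17.1, 15.8 and 17.2 CPM in vector control tumors 1, 2 and 3, lower by -0.62 ± 0.12 (edgeR adjusted p = 0.0431). Scaled by library size alone, Adamts14 did not pass (edgeR adjusted p = 0.0529). Of 12 collagen breakdown genes 1 passed, Mmp14, the membrane-bound collagenase MT1-MMP. Mmp14 had 125, 113 and 130 CPM in ATM-KO tumors 1, 2 and 3, against 202, 185 and 181 CPM in vector control tumors 1, 2 and 3, with no overlap. Mmp14 was lower by -0.63 ± 0.08 (edgeR adjusted p = 0.0216). A single called gene of 11, 12 or 8 is too small a count to set these lists apart from all genes.

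Of 8 collagen receptors tested 1 passed, where 4.96% of all genes were called in either direction. Itgb1, the beta subunit shared by the collagen-binding integrins, had 622, 637 and 701 CPM in ATM-KO tumors 1, 2 and 3, against 946, 904 and 869 CPM in vector control tumors 1, 2 and 3. Itgb1 was lower by -0.47 ± 0.08 (edgeR adjusted p = 0.0331), in 3 of 3 tumors. Genes near some of these also had negative medians: in the 10 Mb bins that hold them the median was -0.34 around Mmp14, -0.34 around Itgb1 and -0.24 around Colgalt1, with -0.35 over chromosome 14, which carries Mmp14, and -0.26 over chromosome 8, which carries Itgb1 and Colgalt1. Whether a regional change took part was not tested. Of the 8 calls over all lists outside the collagens, 0 to 2 were made when any single tumor other than vector control tumor 1 was left out. Without vector control tumor 1, Crtap and Adamts14 lost their calls too (edgeR adjusted p = 0.0599 and 0.0531).

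Proteins that bind fibrils, partners of type IV collagen in basement membranes and the TGF-beta pathway, a known inducer of collagen synthesis, had 0 called genes of 12, 12 and 11 tested, with medians of -0.01, -0.10 and -0.07. At an unadjusted edgeR p under 0.05 there were 1, 2 and 0 genes. Over all genes tested 4.96% were called, and at that unadjusted p 10.6% were higher and 12.3% lower. The fibril-binding genes of smallest p, Sparc and Fn1, averaged 511 ± 69.6 and 527 ± 127 CPM in ATM-KO tumors, against 658 ± 97.9 and 705 ± 164 CPM in vector control tumors (SD, n = 3 each). In the basement membrane list these were Nid2, at 23.1 ± 2.85 CPM in ATM-KO tumors and 35.2 ± 5.64 CPM in vector control tumors, and Lama5, at 60.4 ± 6.15 CPM in ATM-KO tumors and 45.2 ± 10.2 CPM in vector control tumors. In the TGF-beta list Tgfbr2 averaged 122 ± 10.6 CPM in ATM-KO tumors and 139 ± 12.2 CPM in vector control tumors, and Smad2 averaged 61.2 ± 2.29 CPM in ATM-KO tumors and 55.9 ± 3.29 CPM in vector control tumors.

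Markers of the cell types that make collagen or can surround a tumor were read in the same tests. Fibroblast, endothelial, pericyte and smooth muscle, skeletal muscle, adipocyte and leukocyte lists had 0 called of 9, 8, 7, 8, 6 and 5 tested. Over all genes tested 4.96% were called in either direction. An unadjusted edgeR p under 0.05 was reached by 3 genes of the endothelial list (1 higher and 2 lower) and 0 of the others. At that p 10.6% of all genes were higher and 12.3% lower, and such small counts do not set a list apart. The fibroblast genes of smallest p, Lsp1 and Pdgfrb, averaged 51.8 ± 3.23 and 22.5 ± 7.61 CPM in ATM-KO tumors, against 41.1 ± 22.1 and 26.3 ± 8.49 CPM in vector control tumors (SD, n = 3 each). The endothelial genes of smallest p, Cdh5 and Vwf, averaged 40.6 ± 5.80 and 60.8 ± 5.49 CPM in ATM-KO tumors, against 60.1 ± 13.2 and 42.6 ± 11.7 CPM in vector control tumors. The pericyte genes of smallest p, Acta2 and Kcnj8, averaged 23.6 ± 2.55 and 1.59 ± 0.883 CPM in ATM-KO tumors, against 34.6 ± 15.7 and 2.65 ± 0.727 CPM in vector control tumors. In the fibroblast and pericyte pairs the groups overlapped. The muscle genes of smallest p, Tnnt3 and Myh1, averaged 398 ± 396 and 89.7 ± 93.2 CPM in ATM-KO tumors, against 215 ± 366 and 53.5 ± 87.6 CPM in vector control tumors. The adipocyte genes of smallest p, Retn and Lep, averaged 0.300 ± 0.422 and 0.292 ± 0.404 CPM in ATM-KO tumors, against 4.99 ± 4.70 and 2.08 ± 1.78 CPM in vector control tumors. The leukocyte genes of smallest p, Ptprc and Adgre1, averaged 129 ± 21.4 and 85.4 ± 11.1 CPM in ATM-KO tumors, against 100 ± 33.4 and 74.4 ± 40.0 CPM in vector control tumors. Muscle markers summed to 2457, 6637 and 562 CPM in ATM-KO tumors 1, 2 and 3, against 23.3, 59.9 and 7059 CPM in vector control tumors 1, 2 and 3, and adipocyte markers to 4.39, 2.54 and 42.4 CPM in ATM-KO tumors 1, 2 and 3, against 0.0885, 270 and 146 CPM in vector control tumors 1, 2 and 3. Both sums differed widely between tumors of 1 group and were lowest in vector control tumor 1. Among melanoma markers 1 of 7 was called: Dct, an enzyme of melanin synthesis, had 5024, 5150 and 5063 CPM in ATM-KO tumors 1, 2 and 3, against 10412, 8045 and 7107 CPM in vector control tumors 1, 2 and 3, a difference of -0.75 ± 0.15 (edgeR adjusted p = 0.0434), and the median of its 10 Mb bin on chromosome 14 was -0.58. The part of these cells in the collagen levels was not tested.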

How the data were processed

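Total RNA of 6 B16 tumors was sequenced. Each deposited file gives the raw read counts of 1 tumor by gene. The notes on processing name HTSeq, STAR, SAMtools, cutadapt and Trim Galore without versions or roles, and the builds mm10 and GRCm38, per the submitters' processing notes. All gene identifiers matched GENCODE M21, the source of the coordinates. Rows naming no gene (16.7% to 18.2% of reads outside genes, 1.21% to 1.38% on several genes) were left out.

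In edgeR 4.0.16, filterByExpr kept 15696 genes (minimum count 10, minimum total 15). Library sizes were scaled by TMM (factors 0.958 to 1.03), and the quasi-likelihood F test was run with genotype as its only term and robust dispersions. P-values were adjusted over all genes tested by Benjamini-Hochberg, with a threshold of 0.05. SE is the absolute log2 fold change divided by the square root of F. The common biological coefficient of variation was 27.6%, and the script was tested on simulated data. Libraries of 1 group differed by more than counting noise (chi-square over degrees of freedom 21.2 to 80.0), so each is 1 sample.

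Per-tumor values are given for Col1a1, Col3a1, Col4a1 and their partner chains, for members with an adjusted p under 0.05, for the 6 of smallest p and the 6 of highest CPM per kb of exon; of the other lists, all members called are named with per-tumor values, or the 2 of smallest p with group means where none was. The lists cover collagen classes, folding, processing, breakdown, receptors, matrix and basement membrane partners, TGF-beta and cell type markers; 1 marker list is not reported here. The members and lists were chosen with earlier results of these data known. Alternatives were other scalings, filters, thresholds, DESeq2 1.42.0, limma-voom (limma 3.58.1), a replicate block and leaving out each tumor.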

Additional observations from a re-analysis of the deposited data

How the results depend on the processing

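Of the 3 collagen calls, Col4a4 and Col4a5 passed under both other scalings, both other filters, DESeq2, limma-voom, non-robust dispersions and protein-coding genes only, and Col7a1 did not pass in 3 of these. Library size as the only scaling, limma-voom and protein-coding genes only each left 1 collagen called lower. DESeq2 called 3 collagens higher and 5 lower, 16 members of the other lists, and 865 genes higher and 1054 lower in all. At a threshold of 0.01 there were 0 collagens higher, 0 lower and 0 list members, among 26 genes higher and 22 lower; at 0.10 there were 783 and 916 genes in all.

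With a replicate block, edgeR called 0 collagens higher and 0 lower, 0 list members and 0 genes in either direction; an unadjusted p under 0.05 was reached by 3 collagens with positive and 4 with negative fold changes. The numbers are not stated to pair tumors, and same-numbered tumors did not deviate together (correlations 0.0306, -0.293 and -0.452). This check cannot exclude a pairing that the labels leave out, so the block is kept as an alternative. Under the block the fold changes were 0.19 for Col3a1, 0.13 for Col14a1, 0.10 for Col1a1 and 0.21 for Col1a2, and with limma-voom 0.40, 0.42, 0.11 and 0.24, the sign reversed in each; the cause was not tested. The median over collagens was 0.11 with limma-voom and 0.10 with the block.

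Leaving out each tumor in turn gave 0 to 3 collagens higher, 0 to 3 lower, 0 to 17 list members, 0 to 587 genes higher and 2 to 622 lower, with the highest counts without vector control tumor 1 and fewer tumors behind each fit. The collagen median ran from -0.49 to 0.13. Fold changes ran from -0.99 to 0.082 for Col3a1, -0.74 to 0.44 for Col1a1, -0.66 to 0.45 for Col1a2 and -0.39 to 0.56 for Col6a1. The log2 ratio differences ran from -0.28 to 0.72 for Col3a1 over Col1a1, -0.11 to 0.044 for Col4a1 over Col4a2, -0.15 to 0.0059 for Col6a1 over Col6a2 and -0.72 to 0.062 for Col8a1 over Col8a2. Depth limits the 7 untested collagens, with at most 45 counts in a tumor.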

Other observations

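Col22a1, a collagen known from the junction of muscle and tendon, had too few counts to test. It had 2, 45 and 0 counts in ATM-KO tumors 1, 2 and 3, against 0, 2 and 7 counts in vector control tumors 1, 2 and 3. Its highest count was in ATM-KO tumor 2 and the next in vector control tumor 3, the tumors with the highest sums of skeletal muscle markers (6637 and 7059 CPM). ATM-KO tumor 1 had 2 counts with a muscle sum of 2457 CPM, and vector control tumor 2 had 2 counts with 59.9 CPM. ATM-KO tumor 3 had 0 counts with 562 CPM, and vector control tumor 1 had 0 counts with 23.3 CPM. Whether muscle cells took part in these counts was not tested.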
